A study of Mus musculus with 6 samples.

Results

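The collagen chain genes were examined in subcutaneous tumors of MCA205, a transplantable mouse fibrosarcoma line of C57BL/6 origin. A gene was a member when its protein-coding GENCODE symbol was made of Col, a number, the letter a and a further number, which held for 44 of the 54309 gene identifiers in the deposited table. The symbol alone decided membership. Reads were found for 42 of the 44 in at least 1 tumor, and 31 reached a mean of 10 normalized counts (reads over the size factor that puts the tumors on a common depth) over the 6 tumors, the minimum for a test, whereas 13 lay under it. By the kind of chain they encode, the members are 11 fibrillar, 6 type IV, 6 type VI, 9 fibril-associated, 3 short chain network, 2 multiplexin and 4 transmembrane collagen genes and 3 others, of which 10, 3, 5, 3, 3, 2, 3 and 2, respectively, reached the minimum.

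All 6 tumors grew in female C57BL/6J mice, aged 7 weeks at inoculation, that received the same line, with no genetic alteration of the hosts named in the labels. In the control group, 3 mice drank Milli-Q water. In the other group, 3 mice drank water with FF-10101 at 0.1 mg/mL, a tyrosine kinase inhibitor that the study examined as an inhibitor of CSF1R, the receptor of macrophage colony-stimulating factor. Treatment ran from day 1 after inoculation until whole tumors were taken on day 8 for bulk RNA sequencing, so every value sums over tumor cells and the host cells around them, and the comparison asks how the tumors differed under the inhibitor.

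Collagens are matrix proteins built of chains with long repeats of glycine-X-Y, of which a trio winds into a helix, either of identical chains or of chains from different genes. Fibrillar collagens form the cables that carry tension in connective tissue, type IV collagen forms the mesh of basement membranes under endothelium and around muscle and nerve, and the other types link, coat or anchor these structures or sit in the cell membrane. In tumors, collagen is made by fibroblasts, by vessel cells and, in sarcomas, by the tumor cells themselves.

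The promoter windows of 6 members are shown because the results turn on these genes: *Col3a1* and *Col1a2* had the highest levels per kilobase, and *Col11a1*, *Col16a1*, *Col10a1* and *Col23a1* were among the genes with the clearest differences between the groups. Each is the 250 bases before the start of the gene, 5′ to 3′ on the strand of the gene, from RefSeq on GRCm38.p6. Capitals mark 3 motifs searched on both strands. The CCAAT box was searched as CCAAT, which reads as ATTGG from the opposite strand. For the TATA box the letters were TATAAA, or read from the opposite strand TTTATA. The core of the GC box was GGGCGG, or read from the opposite strand CCGCCC. None of the marked motifs overlapped another in the 6 windows.
*Col3a1*, chr1:45311288-45311537, plus strand: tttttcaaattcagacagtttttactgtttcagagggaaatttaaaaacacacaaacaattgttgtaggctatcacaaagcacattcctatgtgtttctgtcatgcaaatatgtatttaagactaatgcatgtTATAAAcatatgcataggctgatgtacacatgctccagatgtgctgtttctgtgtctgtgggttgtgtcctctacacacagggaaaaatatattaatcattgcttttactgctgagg
*Col1a2*, chr6:4505368-4505617, plus strand: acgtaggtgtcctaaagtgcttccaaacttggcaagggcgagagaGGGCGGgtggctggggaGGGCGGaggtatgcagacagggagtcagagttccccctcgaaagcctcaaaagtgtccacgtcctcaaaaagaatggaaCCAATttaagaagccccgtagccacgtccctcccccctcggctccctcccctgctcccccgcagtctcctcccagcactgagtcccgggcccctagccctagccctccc
*Col11a1*, chr3:114030290-114030539, plus strand: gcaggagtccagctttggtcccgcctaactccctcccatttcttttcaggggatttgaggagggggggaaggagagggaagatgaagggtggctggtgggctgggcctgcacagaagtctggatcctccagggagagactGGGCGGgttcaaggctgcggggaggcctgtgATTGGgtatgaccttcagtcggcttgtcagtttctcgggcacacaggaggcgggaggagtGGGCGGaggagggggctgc
*Col16a1*, chr4:130047590-130047839, plus strand: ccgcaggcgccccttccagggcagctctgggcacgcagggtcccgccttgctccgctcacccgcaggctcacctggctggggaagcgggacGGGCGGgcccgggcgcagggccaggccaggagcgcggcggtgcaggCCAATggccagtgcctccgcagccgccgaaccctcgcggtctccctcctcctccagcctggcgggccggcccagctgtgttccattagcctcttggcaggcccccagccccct
*Col10a1*, chr10:34389731-34389980, plus strand: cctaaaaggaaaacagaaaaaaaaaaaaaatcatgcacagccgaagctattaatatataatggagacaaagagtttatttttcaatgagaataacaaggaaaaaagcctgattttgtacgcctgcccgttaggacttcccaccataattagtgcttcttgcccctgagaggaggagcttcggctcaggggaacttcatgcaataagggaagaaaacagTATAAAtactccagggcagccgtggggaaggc
*Col23a1*, chr11:51289670-51289919, plus strand: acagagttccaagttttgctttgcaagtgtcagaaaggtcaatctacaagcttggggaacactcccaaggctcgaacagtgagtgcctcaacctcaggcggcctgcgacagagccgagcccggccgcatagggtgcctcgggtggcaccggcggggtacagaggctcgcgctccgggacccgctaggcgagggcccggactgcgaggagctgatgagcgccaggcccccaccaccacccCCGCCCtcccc

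Windows of this kind were matched for 35 of the 44 members, 38 windows in all. GGGCGG, the core of the GC box, was in 57.9% of the 38 collagen windows and in 32.7% of all 32851 windows of this length. CCAAT was in 34.2% and 33.8%, and TATAAA in 13.2% and 12.4%, respectively. Both *Col1a2* and *Col11a1* hold GGGCGG at 2 places and the CCAAT letters once, whereas *Col3a1* and *Col10a1* hold only TATAAA of the 3. The start sites of *Col4a1* and *Col4a2* lie 21 bases apart on opposite strands of chromosome 8, at 11312826 and 11312805, so these 2 genes share a promoter region. A match of letters is a description of the window and was not tied to the expression values.

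The recovered totals were 9143806 to 9643535 reads in the control tumors and 9277019 to 13258258 in the treated tumors. At 0 reads up to 3 are possible, or 2.29 to 3.38 normalized counts across the tumors, a limit for counting error only. The mesenchymal gene *Vim* lay between 28119.7 and 36521 normalized counts in all 6 tumors and *Epcam*, an epithelial gene, at 15.2 or less. Of the other epithelial genes listed, *Cdh1* lay between 98.7 and 175.6 in all 6 tumors, *Krt18* between 55.2 and 717, and *Krt19* at 9.01 or less. Control tumor 1 stood apart from the other control tumors. The simple epithelial keratin gene *Krt8* was at 0, 454 and 491 in the control tumors and 3.82, 0 and 0.889 in the treated tumors, and *Acta2*, smooth muscle actin, at 1848, 4819.5 and 5549.6 in the control tumors and 2964, 2066 and 1652 in the treated tumors. Control tumor 1 was at the treated level in both genes. Treated tumor 1 stood apart by the keratinocyte keratins *Krt5* and *Krt14*, the latter at 484 against 0 in the other 2 treated tumors. The labels give each tumor as a biological replicate.

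None of the 31 tested members passed an adjusted p of 0.05 (limma across 13963 genes, Benjamini-Hochberg), a threshold passed by 0.043% of all genes tested. The log2 fold change was positive for 27 of the 31 and negative for 4, with a median of 0.61, against a median of 0.02 over all genes. Since *Col17a1* and *Col28a1* reached the minimum mean of 10 only through the treated group, their sign was set by that filter, and without them 25 of 29 were positive. At an unadjusted p under 0.05, 9 members were higher in the treated group, where 8.77% of all genes were, and 0 were lower, where 7.49% of all genes were. These 9 were the fibrillar genes *Col3a1*, *Col5a2* and *Col11a1*, the basement membrane gene *Col4a1*, the fibril-associated genes *Col12a1* and *Col16a1*, and *Col10a1*, *Col15a1* and *Col23a1*. The lowest adjusted p was 0.229, shared by *Col16a1*, *Col10a1* and *Col23a1*. The groups did not overlap, with every treated tumor above every control tumor, for 4 members (*Col5a2*, *Col16a1*, *Col10a1* and *Col23a1*), against 10.9% of all genes, and for 0 members in the other direction, against 9.37%. The count of 4 in 31 is close to the share of all genes.

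Control tumor 1 held the highest control value in 21 of the 31 members (44.6% of all genes) and lay above the lowest treated tumor in 23, which is close to the 70.3% of all genes for which it did so. Without this tumor, 15 members were higher in the treated group at an adjusted p under 0.05 (12.0% of all genes) and 1, *Col18a1*, was lower (9.88%), with a median log2 fold change of 1.04. The 15 were *Col3a1*, *Col1a2*, *Col5a1*, *Col5a2*, *Col5a3*, *Col11a1*, *Col4a1*, *Col4a2*, *Col6a1*, *Col12a1*, *Col16a1*, *Col10a1*, *Col15a1*, *Col13a1* and *Col23a1*. Leaving out any of the other 5 tumors in turn gave 0 members at an adjusted p under 0.05. At an unadjusted p under 0.05, 3 members were higher without control tumor 2 (5.24% of all genes in that fit) and 3 without control tumor 3 (4.43%), and 4 were higher without treated tumor 1 (8.72%), treated tumor 2 (4.13%) or treated tumor 3 (4.38%). The label of control tumor 1 gives no reason to set it aside, a difference in the tumor and in the sample cannot be told apart here, and the comparison with all 6 tumors stands as the main one. An exact permutation test of 3 against 3 tumors cannot go below 0.10.

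**Figure D1:**
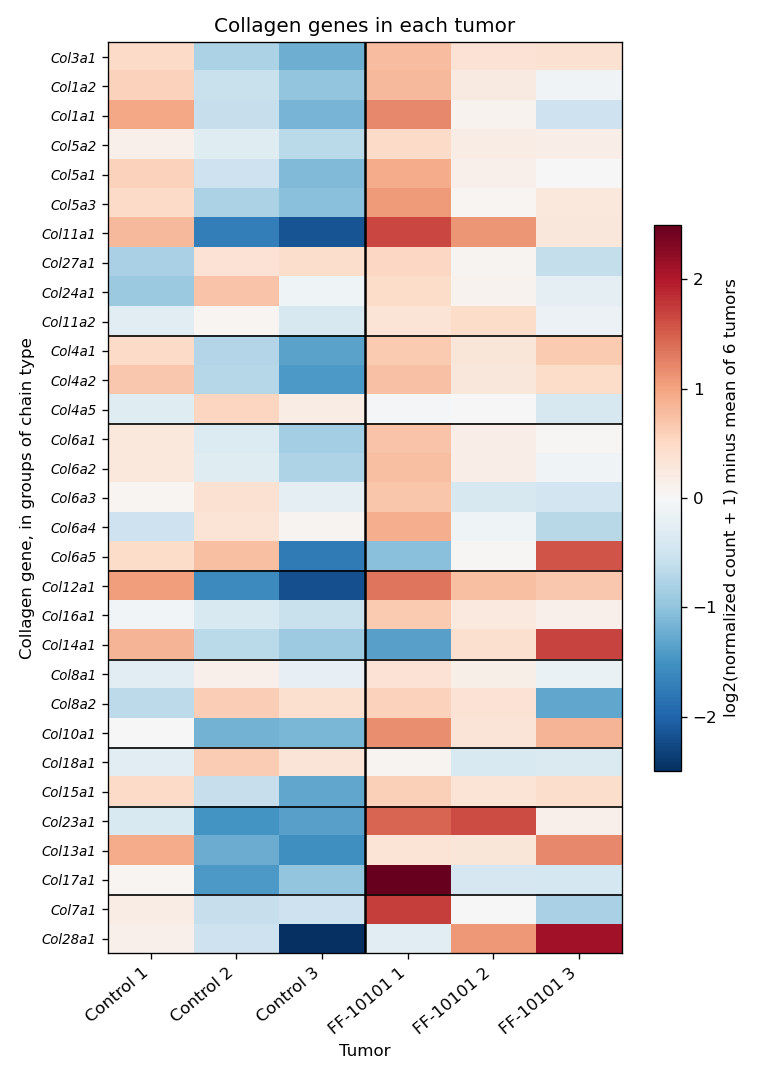
Each row is 1 of the 31 tested collagen genes and each column 1 tumor, with the 3 control tumors left of the thick line and the 3 FF-10101–treated tumors right of it. Color gives log2(normalized count + 1) minus the mean of the 6 tumors, red above and blue below it, cut off at 2.5 in both directions; control tumor 1 is redder than the other control tumors in most fibrillar and type IV rows.

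**Figure D2:**
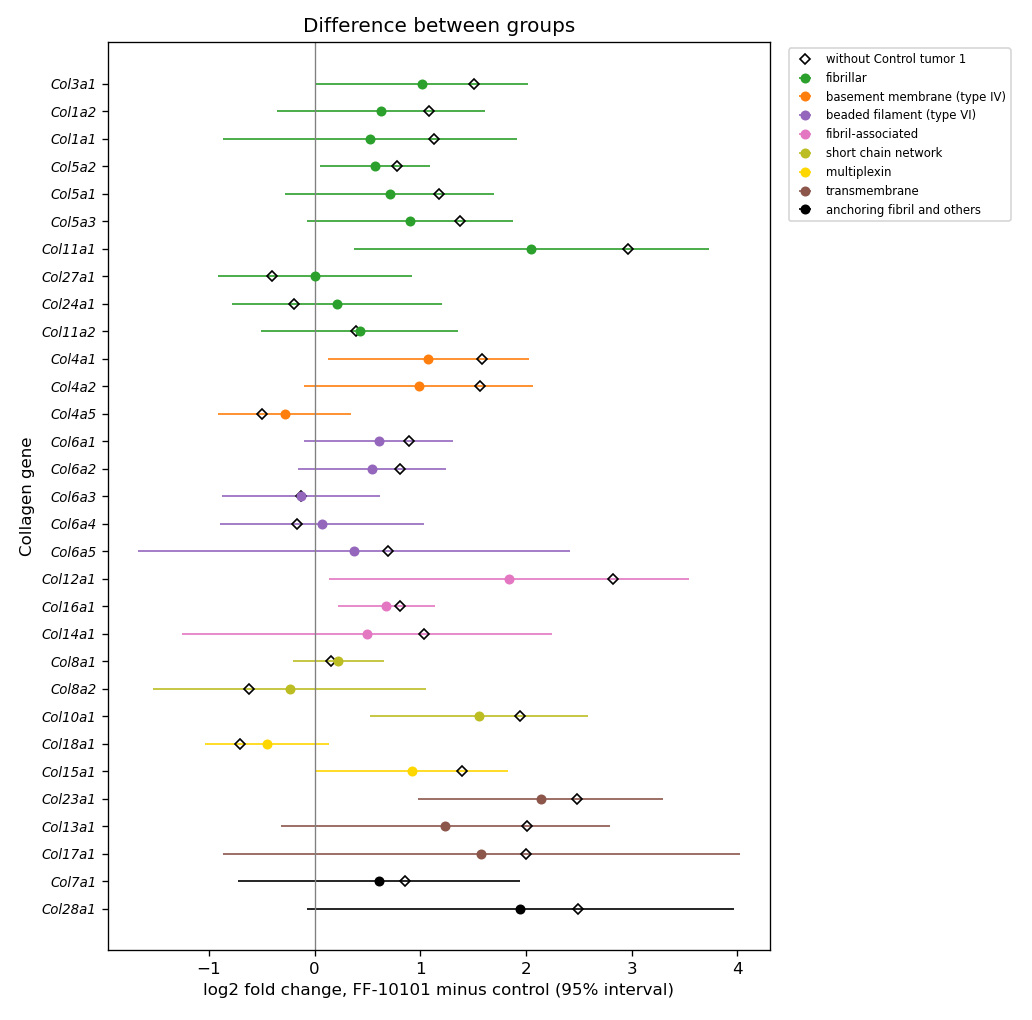
Filled points give the log2 fold change of each tested collagen gene, FF-10101–treated minus control, from the fit on 6 tumors, with its 95% confidence interval as a line and the kind of chain as color. Open diamonds give the value without control tumor 1; 27 of 31 filled points lie right of 0, and the diamonds of *Col11a1* (2.96) and *Col12a1* (2.82) lie farthest right.

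Among the fibrillar collagens, 3 of the 10 tested genes were higher in the treated group at an unadjusted p under 0.05 (8.77% of all genes). *Col3a1*, whose chain forms the homotrimer of type III collagen in skin, vessels and loose connective tissue, had 100560, 41803 and 31006 normalized counts in control tumors 1, 2 and 3 and 123073, 92257 and 94178 in FF-10101–treated tumors 1, 2 and 3. The lowest treated value was below control tumor 1 and more than 2-fold above control tumors 2 and 3. The group means were 57789.5 ± 37431 in the control group and 103169 ± 17264 in the treated group (SD, n = 3 each), and the log2 fold change was 1.01 ± 0.44 (SE; limma adjusted p = 0.306), or 1.51 without control tumor 1 (limma adjusted p = 0.00415) and 0.66 without control tumor 3, and 0.61 after quantile normalization. The chains of type I collagen, the main fibril of skin, tendon and bone, overlapped more. *Col1a2* was at 52632, 24008 and 17787 in the control tumors and 61334, 40984 and 33015 in the treated tumors, a log2 fold change of 0.63 with a 95% interval of -0.35 to 1.61. *Col1a1*, which gives 2 of the 3 chains of the type I molecule, was at 48247, 16658 and 11065 in the control tumors and 57277, 26509 and 17408 in the treated tumors. Control tumor 1 was above 2 of the 3 treated tumors in both genes, and for *Col1a1* the interval ran from -0.87 to 1.91 around 0.52. Without control tumor 1, the log2 fold change was 1.08 for *Col1a2* (limma adjusted p = 0.0274) and 1.13 for *Col1a1* (limma adjusted p = 0.102). The log2 fold change of *Col1a2* was 0.30 without control tumor 3 and 0.38 without treated tumor 1, and that of *Col1a1* 0.07 and 0.05.

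The type V and XI chains, which are buried in the fibrils of types I and III or II and set where a fibril starts and how thick it grows, did not pass an adjusted p of 0.05 (limma), and *Col5a2* and *Col11a1* had an unadjusted p under 0.05. *Col5a2* was at 6346, 4680.4 and 3653 in the control tumors and 8144, 6648 and 6542 in the treated tumors. The groups did not overlap, although the lowest treated tumor was only slightly above control tumor 1, and the log2 fold change was 0.57 ± 0.23 (limma adjusted p = 0.285). Its partner chain *Col5a1* was at 7286, 3421 and 2274 in the control tumors and 9384, 5399.9 and 4899 in the treated tumors, and *Col5a3*, a chain of narrower distribution, at 3537, 1466 and 1218 in the control tumors and 5264, 2605 and 3029 in the treated tumors. In both, control tumor 1 was above 2 treated tumors, with log2 fold changes of 0.71 and 0.91. Without control tumor 1 the limma adjusted p was 0.016 for *Col5a2*, 0.0266 for *Col5a1* and 0.0131 for *Col5a3*, with log2 fold changes of 0.77, 1.17 and 1.37. Without control tumor 3 the log2 fold changes of these genes were 0.38, 0.33 and 0.60, and without treated tumor 1 they were 0.47, 0.42 and 0.60. *Col11a1*, a chain best known from cartilage that activated fibroblasts of tumors also make, had the widest gap of the fibrillar genes. It was at 1159, 201 and 149 in the control tumors and 2119, 1435 and 812 in the treated tumors. Control tumors 2 and 3 lay far below all treated tumors, whereas control tumor 1 lay between treated tumors 2 and 3. The group means were 503 ± 569 in the control group and 1456 ± 654 in the treated group, 2.89-fold higher in the treated group, and the log2 fold change was 2.05 ± 0.73 (limma adjusted p = 0.255; 2.96 and 0.00213 without control tumor 1). The remaining fibrillar genes were low, with intervals that spanned 0. *Col27a1* had group means of 349 ± 142 in the control group and 342 ± 127 in the treated group, *Col24a1* of 67.1 ± 37.4 in the control group and 71.3 ± 17.2 in the treated group, and *Col11a2* of 15.5 ± 2.68 in the control group and 21.3 ± 4.7 in the treated group, with log2 fold changes of 0.0033, 0.21 and 0.43. The 8 cartilage and bone marker genes summed to at most 16.3 normalized counts in any tumor, with *Bglap* and *Ibsp* at 0 in all 6. *Hapln1* of this list had 0 reads in each control tumor and 14, 9 and 1 reads in treated tumors 1, 2 and 3, too few for a test.

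**Figure D3:**
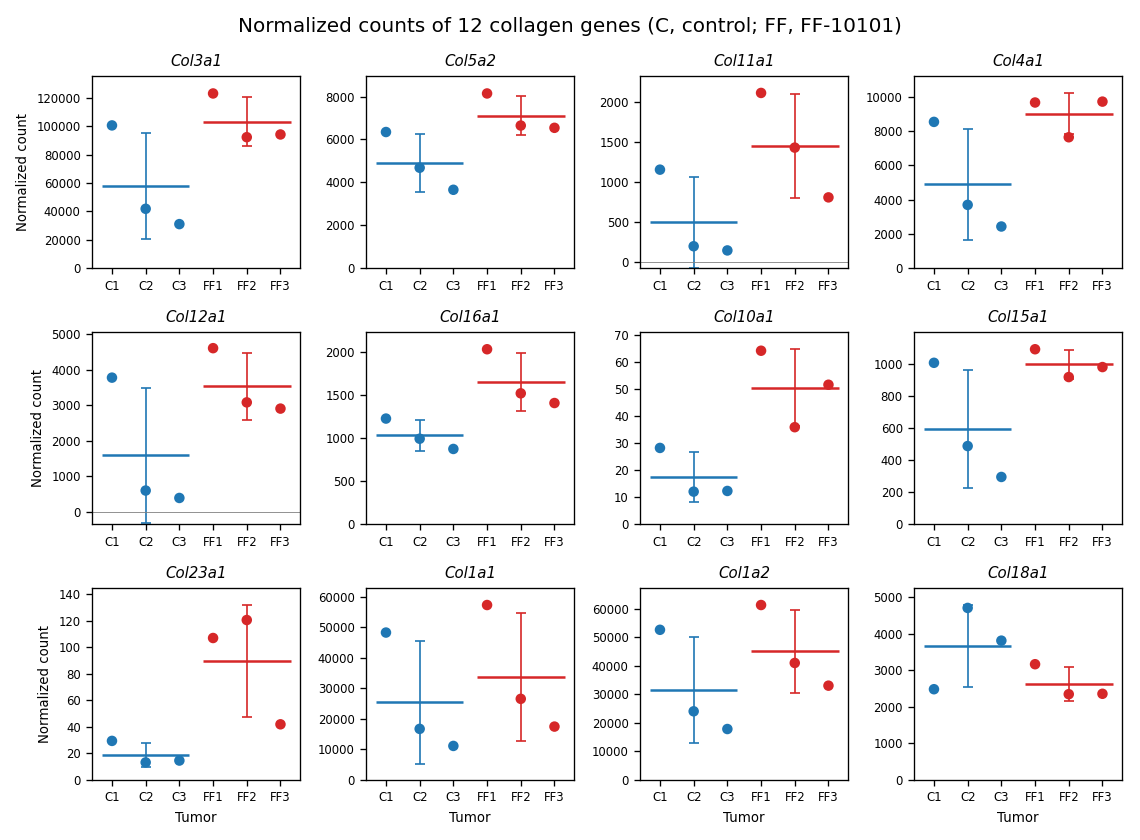
Each panel plots the normalized count of 1 collagen gene in every tumor, with horizontal lines at the group means and vertical bars of 1 SD (n = 3). The first 9 panels are the members at an unadjusted p under 0.05, followed by *Col1a1*, *Col1a2* and *Col18a1*; in *Col3a1*, *Col11a1*, *Col4a1*, *Col12a1* and *Col15a1*, control tumor 1 sits within the range of the treated tumors and control tumors 2 and 3 sit lower.

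The basement membrane genes *Col4a1* and *Col4a2*, whose chains form the trimer found in nearly all basement membranes, followed each other closely. *Col4a1* had 8530.2, 3689 and 2427 normalized counts in control tumors 1, 2 and 3 and 9660.4, 7633 and 9713 in FF-10101–treated tumors 1, 2 and 3. Control tumor 1 was between the treated tumors, and control tumors 2 and 3 were below all of them. Its log2 fold change was 1.08 ± 0.41 (limma adjusted p = 0.275). For *Col4a2* the values were 6519.8, 2489 and 1513 in the control tumors and 6823, 4946 and 5623 in the treated tumors, and the log2 fold change was 0.98 ± 0.47 (limma adjusted p = 0.34). Without control tumor 1 these became 1.58 and 1.57, with limma adjusted p values of 0.00291 and 0.00447. Without control tumor 3 they were 0.67 and 0.51. The ratio of *Col4a1* to *Col4a2* per kilobase was 1.28, 1.45 and 1.56 in the control tumors and 1.38, 1.5 and 1.68 in the treated tumors, with overlapping groups. *Col4a5*, a chain of specialized basement membranes such as that of the kidney, was at 92.3, 166 and 129 in the control tumors and 110.0, 115 and 86.2 in the treated tumors (log2 fold change -0.28, 95% interval -0.91 to 0.34). The other 3 type IV genes had at most 13 reads in a tumor.

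Markers of endothelial cells, which lie on such a basement membrane, were high in the same tumors. The summed level of 11 endothelial genes was 10422, 3605 and 2743 in the control tumors and 9363, 9979 and 9919 in the treated tumors, so control tumor 1 was at the treated level and control tumors 2 and 3 were below it, as for *Col4a1*. All 11 had a positive log2 fold change, and 7 were higher at an unadjusted p under 0.05 (limma), against 8.77% of all genes, among them *Pecam1* at 1.19 and *Tek* at 1.47. Without control tumor 1 all 11 were higher at an adjusted p under 0.05 (limma; 12.0% of all genes), and their median log2 fold change went from 1.16 to 1.72. Whether the number of endothelial cells had a part in the type IV values was not tested, and in bulk tumors fewer cells of a type and less RNA per cell cannot be told apart. Of the other basement membrane genes, 13 of 15 were tested, and 3 were higher at an unadjusted p under 0.05 (*Lamb3*, *Lama4* and *Nid1*; 8.77% of all genes), with 0 lower. *Lamb3* reached the minimum mean of 10 only through the treated tumors. *Lamb3*, a laminin chain of epithelia, was at 7.88, 3.26 and 2.22 in the control tumors and 21.4, 14.1 and 17.8 in the treated tumors, and *Lama4*, a laminin chain of vessel walls, at 1843, 842 and 580.1 in the control tumors and 2047, 1627 and 1747 in the treated tumors. *Hspg2*, which encodes perlecan, had a log2 fold change of 0.06 ± 0.37.

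Type VI collagen forms beaded filaments around cells from the chains of *Col6a1*, *Col6a2* and a longer partner chain. *Col6a1* was at 6679, 4387 and 3082 in the control tumors and 9117, 6188 and 5642 in the treated tumors, and *Col6a2* at 4712, 3191 and 2314 in the control tumors and 6616, 4396 and 3705 in the treated tumors. Control tumor 1 was above 2 treated tumors in both, and the log2 fold changes were 0.61 and 0.54, at limma adjusted p values of 0.36 and 0.402. Without control tumor 1 these p values were 0.0322 and 0.0541. Leaving out control tumor 3 gave log2 fold changes of 0.33 for *Col6a1* and 0.30 for *Col6a2*, and leaving out treated tumor 1 gave 0.40 for the former and 0.31 for the latter. *Col6a3*, the usual partner chain, was at 3653, 4564 and 2966 in the control tumors and 5649, 2665 and 2521 in the treated tumors. Treated tumor 1 was the highest of all and treated tumors 2 and 3 the lowest, for a log2 fold change of -0.13 with a 95% interval of -0.87 to 0.62. When each tumor was left out it ran from -0.50 to 0.080, so its sign was not fixed. The ratio of *Col6a1* to *Col6a2* per kilobase stayed between 1.6 and 1.82 in all 6 tumors, whereas that of *Col6a3* to *Col6a1* was 0.222, 0.422 and 0.391 in the control tumors and 0.251, 0.175 and 0.181 in the treated tumors. The alternative partner chains were scarce. *Col6a4* had group means of 126 ± 35.8 in the control group and 143 ± 82.3 in the treated group and *Col6a5* of 15.5 ± 10.8 in the control group and 21 ± 19.2 in the treated group, and *Col6a6* had at most 15 reads in a tumor. These 3 genes resemble one another in sequence, and their reads can be split differently by an estimating counter.

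Fibril-associated collagens coat fibrils and carry domains that reach out from them. *Col12a1*, common in tissue under tension, had 3772, 603 and 395 normalized counts in control tumors 1, 2 and 3 and 4599, 3078 and 2903 in FF-10101–treated tumors 1, 2 and 3. As in *Col11a1*, control tumor 1 was among the treated values and control tumors 2 and 3 lay several-fold lower. The log2 fold change was 1.84 ± 0.74 (limma adjusted p = 0.29), and 2.82 without control tumor 1 (limma adjusted p = 0.000679, the lowest of any member) and 1.19 without control tumor 3. *Col16a1*, which joins fibrils to fibrillin microfibrils and cells, was at 1227, 992 and 873 in the control tumors and 2035, 1521 and 1408 in the treated tumors. Its groups did not overlap and its control tumors were close together, giving the narrowest interval of the 9 members named above: 0.22 to 1.13 around a log2 fold change of 0.68 (limma adjusted p = 0.229; 0.81 and 0.0178 without control tumor 1). *Col14a1*, a collagen of loose connective tissue and tendon, varied widely within the treated group, at 319, 111 and 94.3 in the control tumors and 68.7, 234 and 578 in the treated tumors. Treated tumor 1 had the lowest value of all tumors and treated tumor 3 the highest, for a log2 fold change of 0.49 ± 0.76. Fibroblast markers of the adventitia were spread in the same order within the treated group, *Pi16* at 103, 616 and 1920.0 and *Clec3b* at 29.8, 194 and 836 in treated tumors 1, 2 and 3; their part in the *Col14a1* values was not tested. The other 6 fibril-associated genes had at most 8 reads in a tumor.

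The short chain collagens form hexagonal nets rather than fibrils. *Col10a1*, the collagen of hypertrophic cartilage, was low but separated the groups, at 28.1, 12 and 12.2 in the control tumors and 64.2, 35.8 and 51.6 in the treated tumors. The lowest treated tumor was above the highest control tumor, and the log2 fold change was 1.55 ± 0.45 (limma adjusted p = 0.229; 1.94 and 0.0114 without control tumor 1), and on the deposited log2 values it was 0.79. Its control values rest on 11 to 25 reads. The type VIII genes, known from vessel walls and the cornea, had overlapping groups. *Col8a1* had group means of 911 ± 142 in the control group and 1068 ± 189 in the treated group, with a log2 fold change of 0.22 and a 95% interval of -0.21 to 0.66, and *Col8a2* had means of 62.5 ± 25.5 in the control group and 57 ± 31.4 in the treated group.

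The multiplexins *Col15a1* and *Col18a1*, both proteoglycans next to basement membranes, did not pass an adjusted p of 0.05 (limma). *Col15a1* was at 1005, 486 and 293 in the control tumors and 1089.8, 916 and 979 in the treated tumors. Control tumor 1 was within the treated range and the other control tumors below it, for a log2 fold change of 0.92 ± 0.39 (limma adjusted p = 0.302), or 1.39 without control tumor 1 (limma adjusted p = 0.00542) and 0.51 without control tumor 3. *Col18a1*, whose last part is released as endostatin, was at 2475, 4700.0 and 3805 in the control tumors and 3159.5, 2339.5 and 2350.2 in the treated tumors. Here control tumors 2 and 3 were above all treated tumors and control tumor 1 was among them, so the log2 fold change was -0.45 ± 0.25 (limma adjusted p = 0.405), and -0.71 without control tumor 1 (limma adjusted p = 0.0273). It was -0.24 without control tumor 2. The ratio of *Col18a1* to *Col15a1* per kilobase was 2.28, 8.94 and 12 in the control tumors and 2.68, 2.36 and 2.22 in the treated tumors. Control tumors 2 and 3 stood alone in this ratio, and the other 4 tumors lay between 2.22 and 2.68. The same 2 tumors held most *Krt8* and *Krt18*, the latter at 55.2, 717 and 643 in the control tumors and 93.2, 61.9 and 87.1 in the treated tumors; a link between these keratins and *Col18a1* was not tested.

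Of the transmembrane collagens, *Col23a1* separated the groups. It was at 29.3, 13 and 14.4 in the control tumors and 107, 121 and 41.8 in the treated tumors. The lowest treated tumor was above the highest control tumor, with group means of 18.9 ± 9.0 in the control group and 89.7 ± 42.1 in the treated group, 4.75-fold apart, and a log2 fold change of 2.14 ± 0.50 (95% interval 0.98 to 3.30, limma adjusted p = 0.229; 2.49 and 0.0105 without control tumor 1). On the deposited log2 values the difference was 1.23. The control tumors held 12 to 26 reads of it and the treated tumors 47 to 140, so counting error is large in the control group. *Col13a1*, found at cell contacts and the neuromuscular junction, was at 47.3, 9.78 and 7.76 in the control tumors and 31.3, 30.4 and 57.8 in the treated tumors, with control tumor 1 above 2 treated tumors and a log2 fold change of 1.24 ± 0.67, or 2.01 without that tumor (limma adjusted p = 0.0169) and 0.78 without control tumor 3, and 0.55 on the deposited log2 values.

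*Col17a1* and *Col7a1* hold skin to its basement membrane, the first in the hemidesmosomes of keratinocytes and the second in the anchoring fibrils below them. *Col17a1* was at 7.88, 2.17 and 3.33 in the control tumors and 78.7, 5.43 and 5.33 in the treated tumors, and reached the minimum only through treated tumor 1. *Col7a1* was at 657, 384 and 400.4 in the control tumors and 1911, 570.0 and 328 in the treated tumors. In both, treated tumor 1 stood far above the other 5 tumors, which lay closer together. The same tumor was highest in most keratinocyte genes listed: *Krt5* was at 0, 0 and 13.3 in the control tumors and 396, 0 and 0 in the treated tumors, and the summed level of 8 keratinocyte genes at 110.3, 59.8 and 234 in the control tumors and 1208, 105 and 81.8 in the treated tumors. *Krt14*, *Sfn*, *Trp63* and *Dsp* were also highest in treated tumor 1. *Krt10* and *Krt1* were highest in control tumor 3, at 107.6 and 16.6 against 38.2 and 0 in treated tumor 1, and *Krtdap* was at 13.3 against 13.7. The log2 fold changes of *Col17a1* and *Col7a1* were 1.58 and 0.61, with 95% intervals of -0.86 to 4.02 and -0.73 to 1.94. Without treated tumor 1 that of *Col7a1* was -0.11 and that of *Col17a1* was 0.36. With all 6 tumors *Col17a1* was 0.67 on the deposited log2 values, 0.83 after quantile normalization and 0.95 with a pseudocount of 10. The part of skin tissue in these values was not tested. *Col28a1*, a collagen of peripheral nerve, was at 12.4, 7.61 and 1.11 in the control tumors and 9.16, 25 and 51.6 in the treated tumors and reached the minimum through treated tumors 2 and 3, with a log2 fold change of 1.95 and a 95% interval of -0.07 to 3.96. It was 1.16 without control tumor 3, 0.74 on the deposited log2 values and 1.08 with a pseudocount of 10. The summed level of 6 Schwann cell genes was 697, 312 and 396 in the control tumors and 302, 563 and 911 in the treated tumors.

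**Figure D4:**
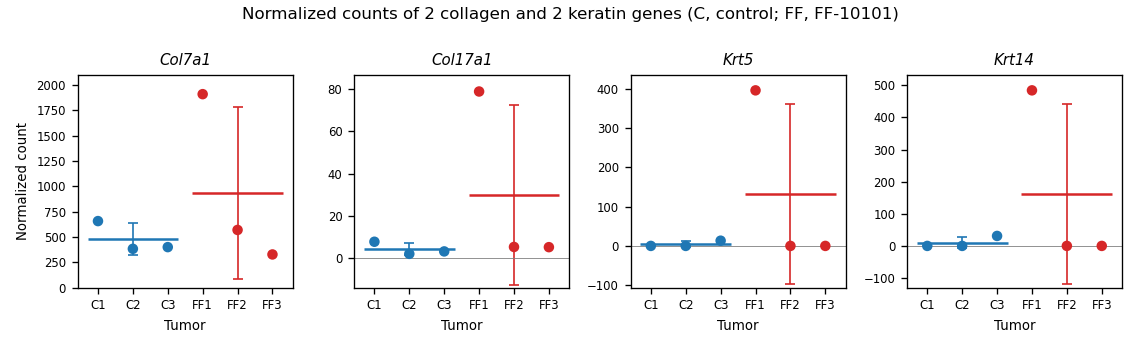
Normalized counts of *Col7a1*, *Col17a1* and the keratinocyte genes *Krt5* and *Krt14* are plotted for each tumor, with horizontal lines at the group means and vertical bars of 1 SD (n = 3), which reach below 0 where 1 tumor carries nearly all of the signal. Treated tumor 1 (FF1) has the highest value in all 4 panels.

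The 13 members under the minimum had at most 15 reads in any tumor. *Col9a1* and *Col9a2* had 0 reads in all 6 tumors, which allows up to 3 reads in each. *Col2a1*, the fibril of cartilage, had 1 read in control tumor 1 and 0 elsewhere, and *Col19a1* had 1 read in treated tumor 2. *Col26a1* had 4 reads in treated tumor 1 and 0 elsewhere. *Col22a1* had at most 1 read in a tumor, *Col25a1* at most 4, *Col4a3* at most 6, *Col20a1* at most 7, *Col9a3* at most 8, *Col4a6* at most 10, *Col4a4* at most 13 and *Col6a6* at most 15. A difference between the groups was not detectable at this depth for these genes.

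Collagen chains made up a share of all reads of 2.4, 1.21 and 0.854% in the control tumors and 3.16, 2.11 and 1.93% in the treated tumors. The share was above that of control tumors 2 and 3 in every treated tumor, and control tumor 1 was above 2 of the 3 treated tumors. The 95% Wilson intervals, which cover counting error only, reached from 0.848 to 0.86% in control tumor 3, the lowest, and from 3.15 to 3.17% in treated tumor 1, the highest. About 1 read in 117 was collagen in the former and 1 in 31.7 in the latter.

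Divided by the length of the longest annotated transcript, levels could be compared between members. In the control group, *Col3a1* was at 10386 ± 6727 normalized counts per kilobase (SD, n = 3), *Col1a2* at 5885 ± 3475 and *Col1a1* at 4270.4 ± 3381. These 3 were followed by *Col6a1* at 1150.2 ± 444, *Col5a2* at 739 ± 205, *Col4a1* at 738 ± 487, *Col6a2* at 693 ± 247 and *Col18a1* at 654 ± 200.1. Each of these neighbors in the order differed from the next by less than the larger of their SDs. In the treated group *Col3a1* was at 18542 ± 3103 per kilobase, above *Col1a2* by more than either SD at 8435 ± 2731, and *Col4a1* at 1361 ± 179 came after *Col1a1* at 5688 ± 3523 and *Col6a1* at 1703 ± 456. Of the summed level per kilobase of all members, fibrillar genes took 85, 77.8 and 78% in the control tumors and 84.2, 83.4 and 81.9% in the treated tumors. Type VI genes took 6.52, 10.5 and 10.1% in the control tumors and 7.48, 7.22 and 6.95% in the treated tumors, and type IV genes 5.1, 4.64 and 4.09% in the control tumors and 4.56, 5.22 and 6.83% in the treated tumors. The multiplexins took 1.4, 4.47 and 4.84% in the control tumors and 1.39, 1.6 and 1.77% in the treated tumors, with control tumors 2 and 3 above the other 4.

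**Figure D5:**
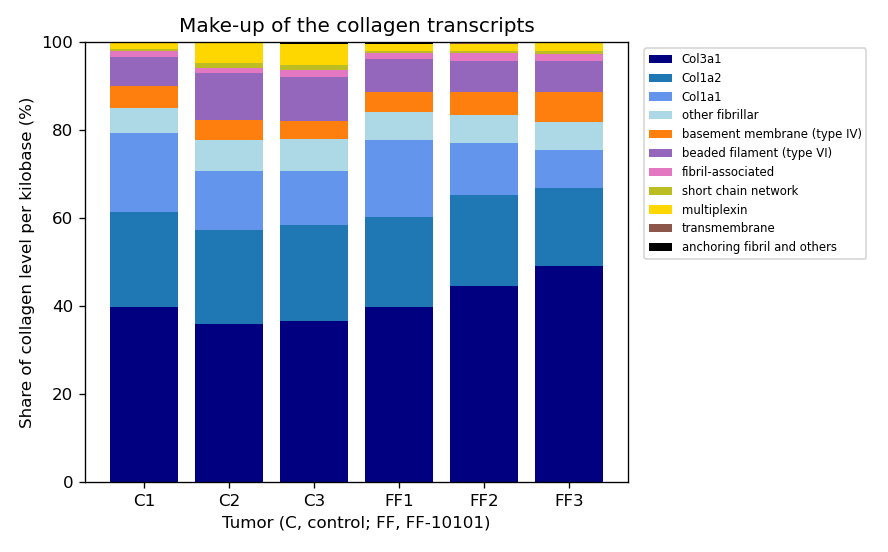
Each bar splits the summed collagen level per kilobase of 1 tumor (C, control; FF, FF-10101–treated) into the shares of *Col3a1*, *Col1a2*, *Col1a1*, the other fibrillar genes and the other kinds of chain, in percent. *Col3a1* takes 35.9% to 39.8% of the control bars and 39.8% to 49.1% of the treated bars, and the multiplexin segment near the top is thickest in C2 and C3.

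Ratios within a tumor compare members without the total amount of collagen. *Col3a1* over *Col1a2* per kilobase was 1.84, 1.67 and 1.68 in the control tumors and 1.93, 2.16 and 2.74 in the treated tumors, so every treated tumor was above every control tumor, with means of 1.73 ± 0.0934 and 2.28 ± 0.418 (SD, n = 3). *Col11a1* over *Col5a1*, chains of related fibril cores, was 0.174, 0.0644 and 0.0717 in the control tumors and 0.248, 0.291 and 0.182 in the treated tumors, again without overlap. With 3 tumors a group, an exact two-sided permutation test of such a ratio gives 0.10 at the least. *Col3a1* over *Col1a1* was 2.22, 2.67 and 2.99 in the control tumors and 2.29, 3.71 and 5.77 in the treated tumors, with treated tumor 1 at the control level. Of chains that form 1 molecule, *Col1a1* over *Col1a2* was 0.827, 0.626 and 0.561 in the control tumors and 0.842, 0.583 and 0.476 in the treated tumors, and *Col5a1* over *Col5a2* was 0.905, 0.576 and 0.491 in the control tumors and 0.908, 0.64 and 0.59 in the treated tumors, both with overlapping groups. The groups did not overlap in 2 of the 10 ratios computed.

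The genes that modify, fold, cut, link and bind collagen were read as a list of 76, of which 72 were tested. At an unadjusted p under 0.05, 19 were higher in the treated group (8.77% of all genes) and 0 lower (7.49% of all genes), and 0 passed an adjusted p of 0.05 (limma), with a median log2 fold change of 0.25. The 19 include *Lamb3* and *Fmod*, whose direction was set by the filter, since they reached the minimum mean only through the treated tumors. Genes of proteins that bind fibrils were the largest group among the 19, with 9 of 16 higher at that p (8.77% of all genes) and 8 of 16 without overlap between the groups (10.9% of all genes). *Fmod* is in both of these counts. *Fmod*, which encodes fibromodulin, a small proteoglycan on fibrils, had a log2 fold change of 2.75 at 14.6, 3.26 and 0 in the control tumors and 21.4, 30.4 and 27.6 in the treated tumors. Control tumors 2 and 3 held 3 and 0 reads of it, and it reached the minimum mean only through the treated tumors. *Podn*, another small leucine-rich proteoglycan gene, was at 102, 19.6 and 35.5 in the control tumors and 111, 161 and 148 in the treated tumors, and its log2 fold change was 1.70. The other members of this group with such a p were *Dcn*, *Lum*, *Ogn*, *Aspn*, *Sparc*, *Postn* and *Thbs2*. *Fn1*, which encodes fibronectin, had a log2 fold change of 0.05 ± 0.30.

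Of 14 hydroxylation and glycosylation genes, 1 was higher at an unadjusted p under 0.05, a share close to the 8.77% of all genes: *P3h2*, a prolyl 3-hydroxylase that acts on type IV collagen, at 84.4, 28.3 and 8.87 in the control tumors and 81.7, 103 and 109 in the treated tumors. *P4hb* and *P4ha1*, subunits of the prolyl 4-hydroxylase that stabilizes the helix, had log2 fold changes of 0.08 and 0.02. None of the 8 folding and export genes reached that p (limma), and *Serpinh1*, the collagen chaperone HSP47, had a log2 fold change of 0.37 ± 0.22. Outside the cell, *Adamts2*, which removes the amino-terminal propeptide, was the 1 of 7 tested propeptide genes with such a p (8.77% of all genes), at 499.8, 177 and 206 in the control tumors and 449, 576 and 824 in the treated tumors. *Lox*, the lysyl oxidase that starts cross-linking, was the 1 of 5 cross-linking genes (8.77% of all genes), at 6800.1, 2296 and 1523 in the control tumors and 6209.9, 7695 and 11514 in the treated tumors. A count of 1 in lists this small does not set them apart from all genes. Control tumor 1 was among the treated tumors in both *Adamts2* and *Lox*, and without it the log2 fold changes went from 1.18 to 1.64 for *Adamts2* and from 1.51 to 2.13 for *Lox*, with limma adjusted p values of 0.00497 and 0.00284. Of 9 tested receptor genes, 4 were higher at that p (8.77% of all genes). *Itga1*, a collagen-binding integrin chain, was at 496, 123 and 125 in the control tumors and 414, 509 and 769.8 in the treated tumors, and *Itga2*, which binds fibrillar collagen, at 75.4, 82.6 and 52.1 in the control tumors and 101, 177 and 142 in the treated tumors. The other 2 were *Itga11* and *Ddr2*. Without control tumor 1 the limma adjusted p was 0.00204 for *Itga1*, 0.0458 for *Itga2*, 0.030 for *Itga11* and 0.194 for *Ddr2*. In that fit 25 of the 72 pathway genes, *Fmod* and *Lamb3* among them, were higher at an adjusted p under 0.05 (12.0% of all genes), and the median log2 fold change of the 72 was 0.41.

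Markers of the other cells that could make or clear collagen varied as well. The summed level of 9 fibroblast genes was 14727, 10480.2 and 9640.5 in the control tumors and 12334, 15364 and 22078 in the treated tumors, with 4 of the 9 higher at an unadjusted p under 0.05 (limma; 8.77% of all genes). Most of the sum was *Gsn*, *Cd34* and *Pdgfra*. *Gsn*, the 1 gene of the list with a negative log2 fold change (-0.16), was at 4961, 3773 and 3454 in the control tumors and 2503, 3230 and 5687 in the treated tumors. For 11 pericyte and smooth muscle genes the sum was 5205, 7656 and 8599 in the control tumors and 5820.4, 7828 and 6039 in the treated tumors, with 3 higher and 2 lower at that p (8.77% and 7.49% of all genes). A list of 7 mesenchymal genes, which stromal cells of the host can express as well as the tumor line, summed to 44644, 38398 and 38526 in the control tumors and 38106, 38862 and 41728 in the treated tumors, most of it *Vim*. Of these 7, 3 were higher at an unadjusted p under 0.05 (8.77% of all genes) without overlap between the groups (10.9% of all genes), namely *S100a4*, *Prrx1* and *Snai2*, the last with a log2 fold change of 1.63. The log2 fold change was negative for 3 others, *Vim* (-0.16), *Twist1* (-0.23) and *Twist2* (-0.32), and positive for *Thy1* (0.74). The 7 genes of macrophages, cells that depend on CSF1R, summed to 62055, 42938 and 58558 in the control tumors and 20223, 35228 and 34984 in the treated tumors, most of it *Lyz2*, which was at 42373, 31642 and 48996 in the control tumors and 12842, 24525 and 23652 in the treated tumors. The groups did not overlap in 3 of the 7 (*Lyz2*, *Adgre1* and *Itgam*), all lower in the treated tumors (9.37% of all genes), and overlapped in *Csf1r*, *Cd68*, *Mertk* and *Aif1*. The 9 skeletal muscle genes summed to 7344, 3400.3 and 5071 in the control tumors and 3317, 12307 and 7298 in the treated tumors, and 6 adipocyte genes to 144, 108 and 351 in the control tumors and 72.6, 194 and 506 in the treated tumors, with overlapping groups. The part of these cells in the collagen values was not tested.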

How the data were processed

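Bulk RNA was sequenced from 3 control and 3 FF-10101–treated MCA205 tumors. The authors trimmed reads with fastp version 0.19.5, estimated transcript abundance with Salmon version 1.5.1 on GENCODE vM27 and tested genes with DESeq2 version 1.22.1. The deposited log2 values, 1 per gene and tumor with replicates kept apart, match the variance-stabilizing transformation in the tool of the authors, with 1 value for 0 reads (4.43) in all tumors. Its inverse gave whole reads for 100% of 325854 values (tolerance 1e-06), and reads over each tumor's size factor are the normalized counts used here. The table had been planned for as normalized counts.

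Identifiers were named by stable ID from GENCODE vM21 (51484 of 54309), whose longest transcripts gave the lengths. Promoter windows came from RefSeq on GRCm38.p6, another build than that of vM27. Groups were compared on log2(normalized count + 1), a scale that understates changes of low genes, with limma version 3.58.1 in R version 4.3.3 (trend, no covariate). Tests covered 13963 genes whose mean was 10 or more, with Benjamini-Hochberg adjustment, and the fit was tested on simulated data. The members, the lists of chain kinds, pathway genes and cell markers, and the tests were chosen with earlier results of these data known. Values in every tumor are given for members at an unadjusted p under 0.05 or with a mean of at least 1000, group means or fold changes for other tested members, and, per pathway group, at most 2 genes with values. Genes named beyond that were chosen after their values were seen. Alternatives were pseudocounts of 0.5 and 10, no minimum, a mean of at least 50, 75th percentile scaling, quantile normalization, no trend, the replicate number as a block, limma-voom on the reads, the deposited values themselves, and each tumor left out. Salmon can misassign reads of genes with similar copies.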

Additional observations from a re-analysis of the deposited data

How the results depend on the processing

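The number of members at an adjusted p under 0.05 (limma) was 0 with all 6 tumors and in all alternatives but 1, and ranged from 0 to 16 when each tumor was left out, 16 being the value without control tumor 1. Members at an unadjusted p under 0.05 and higher in the treated tumors numbered 4 without a trend (8.29% of all genes in that fit) and 15 with the replicate block (5.86%), against 9 (8.77%), and 3 to 18 when a tumor was left out (4.13% to 19.8%); members lower at that p numbered 0 to 1 (3.43% to 17.2%), and the median log2 fold change lay between 0.33 and 1.04. Over all genes, 6 passed an adjusted p of 0.05, 17 with no minimum, 3 with a mean of at least 50, 1 with the replicate block, and 1 to 3051 when a tumor was left out, the last without control tumor 1. The cause was not tested. The labels of the tumors share only a number across the groups. Deviations of same-numbered tumors from their group means correlated at -0.29, -0.04 and -0.28 over the genes tested. Whether such tumors shared a batch was not tested, and these correlations cannot decide it. Of the 31 tested members, 23 kept the sign of their log2 fold change in every fit. *Col27a1* was -0.0013 on the deposited log2 values and *Col6a5* -0.11 after quantile normalization. On the deposited log2 values *Col24a1*, *Col11a2*, *Col6a5* and *Col8a2* were 0.12, 0.19, 0.15 and -0.12. When a tumor was left out, the values ran from -0.40 to 0.30 for *Col27a1*, -0.20 to 0.62 for *Col24a1*, -0.50 to 0.080 for *Col6a3*, -0.37 to 0.43 for *Col6a4*, -0.42 to 0.99 for *Col6a5*, -0.23 to 1.30 for *Col14a1*, -0.62 to 0.35 for *Col8a2*, -0.50 to -0.08 for *Col4a5*, 0.10 to 0.36 for *Col8a1* and -0.11 to 1.16 for *Col7a1*. No member lost an adjusted p under 0.05, since none had it. With 3 tumors a group, the standard errors of the log2 fold change were largest for *Col17a1* (1.06), *Col6a5* (0.88) and *Col28a1* (0.87).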
